A study of Mus musculus with 18 samples.

Results

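H3K27me3 was compared between bone marrow-derived macrophages (BMDM) of mdxTLR4-/- and mdx mice. The 4 ChIP libraries concerned, 2 per genotype, are among the 18 libraries of the series, and 20807 protein-coding genes of chromosomes 1 to 19 were measured out of 21951 in the annotation. Both genotypes carry the dystrophin mutation of mdx mice, and the mdxTLR4-/- mice also lack TLR4. The mdx samples are labelled with the strain Dmdmdx-4Cv and ages of 14 and 15 weeks. The samples labelled mTLR4, read here as mdxTLR4-/-, carry the strain label Bl6/Bl10 and ages of 16 and 17 weeks. Their inputs, which are digested chromatin sequenced without antibody, are labelled 8 and 9 weeks for mdx and 10 and 11 weeks for mdxTLR4-/-. Labelled age and strain therefore go with the genotype. However, the labelled ages of the whole series are consecutive numbers in library order, inputs included. Whether they are true ages of the mice is therefore uncertain. The strain labels differ, whereas the paper places its mdx and TLR4-/- mice on the same genetic background. If the labels are right, age and strain cannot be told apart from the genotype. The macrophages of all groups were grown from marrow of male mice with L929 cell supernatant, a source of the macrophage growth factor M-CSF, and were left untreated. Native chromatin, digested by micrococcal nuclease, was precipitated with an antibody to H3K27me3. Both alterations are carried by the whole animal and are not limited to macrophages.

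H3K27me3 is laid down by Polycomb repressive complex 2 and lies in broad domains over genes that a cell keeps silent, above all developmental regulators with CpG-rich starts. TLR4 is the receptor through which macrophages sense bacterial lipopolysaccharide and molecules released by damaged tissue, and it signals through adaptors to NF-kappaB and interferon regulatory factors. Macrophages keep the mark off their own lineage genes and carry it over genes of other cell types.

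The authors merged the replicates before they called peaks, so that each genotype has 1 list of peaks, each with a count of ChIP reads. No spread between mice can be had from these lists, no p-value is given, and every interval is a 95% interval of counting error or of the spread over regions. The reads of a gene are a share of the reads of each peak, by bases. Intervals of read ratios are therefore approximate and leave out the error of that sharing. The mdx list held 41558 peaks with 10173431 reads over 259.9 Mb. The mdxTLR4-/- list held 36294 peaks with 7342998 reads over 223.3 Mb, 0.722 times the reads and 0.859 times the covered sequence of mdx. The median peak was 3400 bp long in both lists, with 28.3 reads per kb in mdx and 23.7 in mdxTLR4-/-. Library depth is unknown, since the lists give reads in peaks only. A smaller share of cells with the mark and less mark per cell cannot be told apart in such bulk material. Read ratios are therefore given as deposited (unscaled) and after both lists were brought to the same number of reads in peaks (scaled).

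Fewer gene windows were covered in mdxTLR4-/- than in mdx BMDM, and most of the covered ones were the same in both. Each gene was given a window of its body with 5 kb upstream and 1 kb past its end. A peak lay in the window of 8927 genes in mdx and of 8428 genes in mdxTLR4-/-. At least 50% of the window was under peaks for 3568 genes in mdx and 3249 in mdxTLR4-/-, and for 3120 genes in both. The mean share of a window under peaks was 18.2% in mdx and 16.8% in mdxTLR4-/-. Coverage was lower in mdxTLR4-/- for 5595 genes, higher for 2758, and above 0 and equal for 1003. With a move of 25 percentage points or more as the call, 382 genes fell, which is 1.84% of the genes measured, and 105 rose, which is 0.505%. The plot of coverage in mdxTLR4-/- against mdx shows the called genes on both sides of the diagonal.

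**Figure D1:**
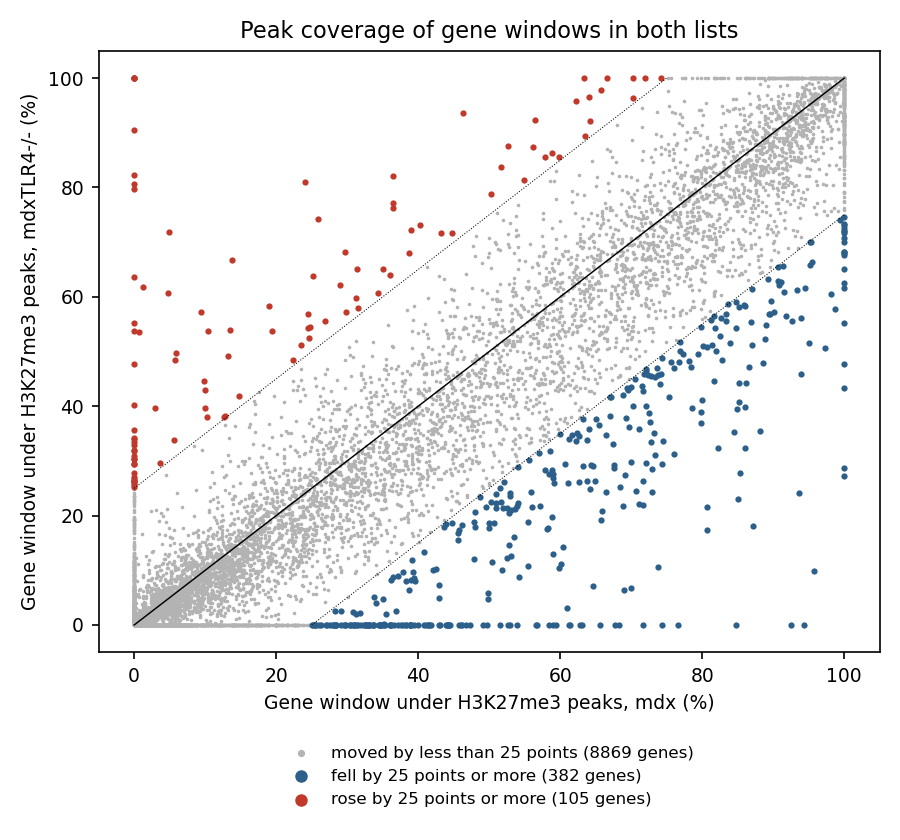
Share of each gene window under H3K27me3 peaks in mdx (x axis, %) and in mdxTLR4-/- (y axis, %), 1 point per gene with a peak in either list; the solid line marks equal coverage and the dotted lines a difference of 25 percentage points. The 382 genes that fell lie below the lower dotted line and the 105 that rose above the upper one, and 110 of the former lie on the x axis because the mdxTLR4-/- list has no peak in the window.

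Genes that moved had short windows, in which a change of the same length is a larger share of the window. The median window was 11.9 kb for genes that fell and 10.3 kb for genes that rose, against 29.3 kb for the other genes with a peak. Peak density in mdx was 28.0 reads per kb for genes that fell and 35.9 for the genes not called. Of the 382 genes that fell, 110 had no peak left in mdxTLR4-/-, and of the 105 that rose, 34 had none in mdx. A gene with under 25% coverage in mdx cannot fall by 25 points. Of the others, 131 of the 1442 genes with 25 to 50% coverage fell, 141 of 1259 with 50 to 75%, and 110 of 2309 with more than 75%. The 1.84% of all genes therefore counts genes that could not fall, among them the 11880 without a peak in mdx. Groups with high coverage hold more genes that could fall, so their shares are not directly comparable with it. The genes that fell lay in 372 merged regions, so that few of them shared a region.

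The peaks that differed between the lists were mostly short and thin. After peaks that overlapped between the lists were joined, 23776 regions held a peak of both lists, 12293 an mdx peak only and 4380 an mdxTLR4-/- peak only. The mdx-only regions held 7.33% of the mdx reads and had a median length of 2200 bp. The mdxTLR4-/--only regions held 2.78% of the mdxTLR4-/- reads and had a median length of 2000 bp. A peak of the mdxTLR4-/- list met 70.4% of mdx peaks, from 45.5% of those under 2 kb to 99.95% of those of 20 kb or more. By read density, the share met went from 40.7% in the lowest quintile of mdx peaks to 92.9% in the highest. In the other direction 87.9% of mdxTLR4-/- peaks were met by an mdx peak. The part that the number of reads plays in these losses was not tested.

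Only 3 peaks of 20 kb or more had no counterpart, 1 in mdx and 2 in mdxTLR4-/-. The mdx peak was 36.8 kb long at chr1:88225401-88262200 in mm10, over the gene Mroh2a, and held 1890 reads at 51.4 reads per kb, a density above 94.5% of mdx peaks. The nearest mdxTLR4-/- peak was 15.0 kb away. The longer mdxTLR4-/- peak covered 35.2 kb at chr2:83952201-83987400 with 1052 reads, over predicted genes from Gm13698 to Gm13697. It reached only the upstream flank of Gm13691, the last of a block of 7, whose start lay under a separate peak with 164 reads. The other mdxTLR4-/- peak of 20 kb or more covered 24.4 kb at chr9:121215801-121240200, inside the window of the kinase gene Ulk4. It held 3724 reads at 152.6 reads per kb, denser than 99.96% of mdxTLR4-/- peaks, and the nearest mdx peak was 1.00 kb away. These 3 loci were singled out after their values were seen.

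Most gene starts under a peak were under 1 in both lists. The start was under a peak in both lists for 4560 genes, in mdx only for 584, in mdxTLR4-/- only for 341 and in neither for 15322. At the start itself 24.7% of genes were covered in mdx and 23.6% in mdxTLR4-/-. At 10 kb upstream these shares were 20.7% and 18.6%, and the lists were closer to each other at the start.

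**Figure D2:**
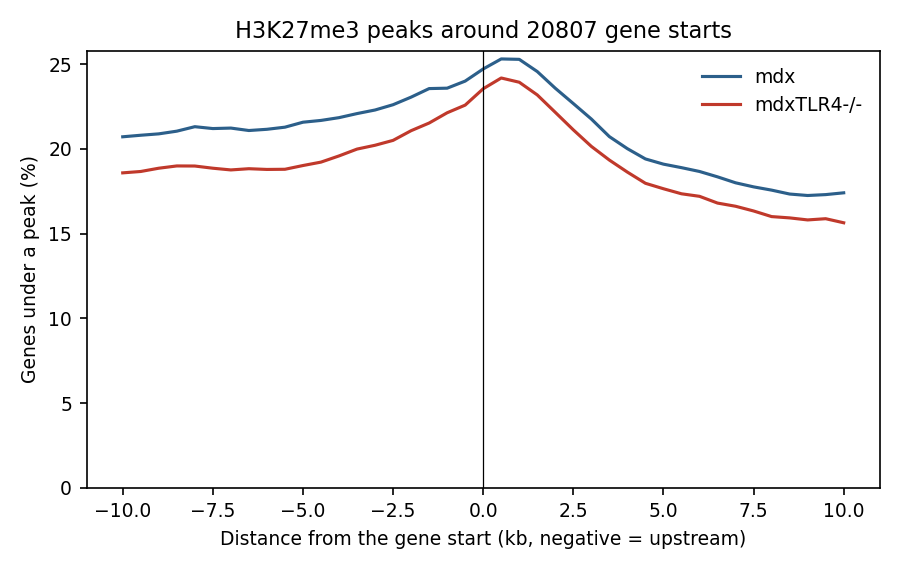
Share of 20807 gene starts (y axis, %) with a peak at each distance from the start (x axis, kb, in steps of 0.5 kb) in mdx and mdxTLR4-/-. Both curves peak 0.5 kb inside the gene, at 25.3% and 24.2%, and the mdxTLR4-/- curve lies below the mdx curve over the whole range drawn.

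Starts covered in 1 list only had fewer CpG dinucleotides than starts covered in both. In the 300 bases from 250 before to 50 after the start, read from GRCm38 for 20802 genes, the median number of CpG was 11 for starts covered in both lists, 6 for mdx only, 8 for mdxTLR4-/- only and 13 for neither. At least 10 CpG were found in 53.9% of starts covered in both, 32.2% of mdx-only starts, 46.3% of mdxTLR4-/--only starts and 54.5% of all. For genes that fell or rose the median was 5 in each, and for those with 50% or more coverage in both lists 9. The following sequences of RefSeq GRCm38, 5′ to 3′ on the strand of the gene with CpG in capitals, show starts of each kind. Of the genes named, Nkx6-2, a neural homeobox gene, stands for a CpG-rich start under peaks in both lists (32 CpG, chr7:139582748-139583047, minus strand), and Il12a for a start poor in CpG that is also covered in both (3 CpG, chr3:68690394-68690693, plus strand). Mroh2a (0 CpG, chr1:88226736-88227035, plus strand) and Krtap10-4 (3 CpG, chr10:77827046-77827345, minus strand) were under a peak in mdx only, and Podnl1 (7 CpG, chr8:84125739-84126038, plus strand) and Gal3st2 (2 CpG, chr1:93861056-93861355, plus strand) in mdxTLR4-/- only. Tnf (11 CpG, chr17:35201958-35202257, minus strand) was under none.
Nkx6-2: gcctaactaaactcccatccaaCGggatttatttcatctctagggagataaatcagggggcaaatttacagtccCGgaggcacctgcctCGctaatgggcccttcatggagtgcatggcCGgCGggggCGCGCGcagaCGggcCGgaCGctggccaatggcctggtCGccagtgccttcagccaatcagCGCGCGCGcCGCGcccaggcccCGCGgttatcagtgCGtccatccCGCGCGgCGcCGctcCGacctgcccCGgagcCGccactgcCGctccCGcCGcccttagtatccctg
Il12a: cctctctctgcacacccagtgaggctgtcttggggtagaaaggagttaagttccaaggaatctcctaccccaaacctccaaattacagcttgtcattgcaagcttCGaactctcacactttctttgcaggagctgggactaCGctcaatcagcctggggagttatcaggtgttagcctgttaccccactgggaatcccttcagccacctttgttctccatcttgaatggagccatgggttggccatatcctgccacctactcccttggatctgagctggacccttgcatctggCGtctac
Mroh2a: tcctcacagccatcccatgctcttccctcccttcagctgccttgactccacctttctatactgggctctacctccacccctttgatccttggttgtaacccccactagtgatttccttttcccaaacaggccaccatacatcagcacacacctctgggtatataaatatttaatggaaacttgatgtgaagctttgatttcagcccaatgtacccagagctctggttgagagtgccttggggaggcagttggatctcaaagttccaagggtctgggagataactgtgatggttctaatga
Krtap10-4: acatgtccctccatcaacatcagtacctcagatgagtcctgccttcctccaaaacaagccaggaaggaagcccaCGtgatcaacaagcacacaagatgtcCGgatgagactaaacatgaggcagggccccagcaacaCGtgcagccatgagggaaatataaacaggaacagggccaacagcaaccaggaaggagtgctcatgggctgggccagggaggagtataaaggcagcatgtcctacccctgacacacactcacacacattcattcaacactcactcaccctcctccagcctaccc
Podnl1: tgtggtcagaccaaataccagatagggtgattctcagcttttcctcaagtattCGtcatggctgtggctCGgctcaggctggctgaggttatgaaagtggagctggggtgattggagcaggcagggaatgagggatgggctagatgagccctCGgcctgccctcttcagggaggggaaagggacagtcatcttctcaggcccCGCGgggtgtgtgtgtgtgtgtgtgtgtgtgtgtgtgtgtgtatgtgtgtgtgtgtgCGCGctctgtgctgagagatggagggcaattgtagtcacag
Gal3st2: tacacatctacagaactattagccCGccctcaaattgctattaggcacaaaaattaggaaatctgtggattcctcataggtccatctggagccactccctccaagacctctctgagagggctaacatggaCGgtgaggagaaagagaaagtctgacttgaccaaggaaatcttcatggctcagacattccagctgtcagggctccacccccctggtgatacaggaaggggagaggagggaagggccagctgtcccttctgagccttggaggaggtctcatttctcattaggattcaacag
Tnf: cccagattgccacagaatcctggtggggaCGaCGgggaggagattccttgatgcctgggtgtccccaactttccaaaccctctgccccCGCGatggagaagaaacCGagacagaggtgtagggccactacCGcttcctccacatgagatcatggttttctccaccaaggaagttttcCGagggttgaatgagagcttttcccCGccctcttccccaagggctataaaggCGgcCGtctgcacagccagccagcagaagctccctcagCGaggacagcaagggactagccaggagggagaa

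Ratios of window reads depended on the scaling. They were taken for the 7745 genes with 20 or more reads in the window in both lists, each peak's reads being shared out by its bases inside the window. Unscaled, the median ratio of mdxTLR4-/- to mdx was 0.753 (95% interval 0.747 to 0.757). At a fold of 1.5, 2463 genes were lower in mdxTLR4-/-, which is 31.8% of those tested, and 140 were higher, which is 1.81%. Scaled, the median ratio was 1.04 (1.04 to 1.05), with 742 genes lower (9.58%) and 504 higher (6.51%). On the log2 scale the scaling moved the median of all genes from -0.41 to 0.06. The split of the scaled calls moved again with the measure. Scaling to the median ratio in shared regions gave 1017 genes lower and 344 higher, and scaled reads per kb of covered window gave 34 lower and 352 higher. The direction of the difference in reads over all genes thus depended on the scaling. Coverage of windows uses no scaling, but the lists hold unequal numbers of reads, and the part of this in coverage was not tested.

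**Figure D3:**
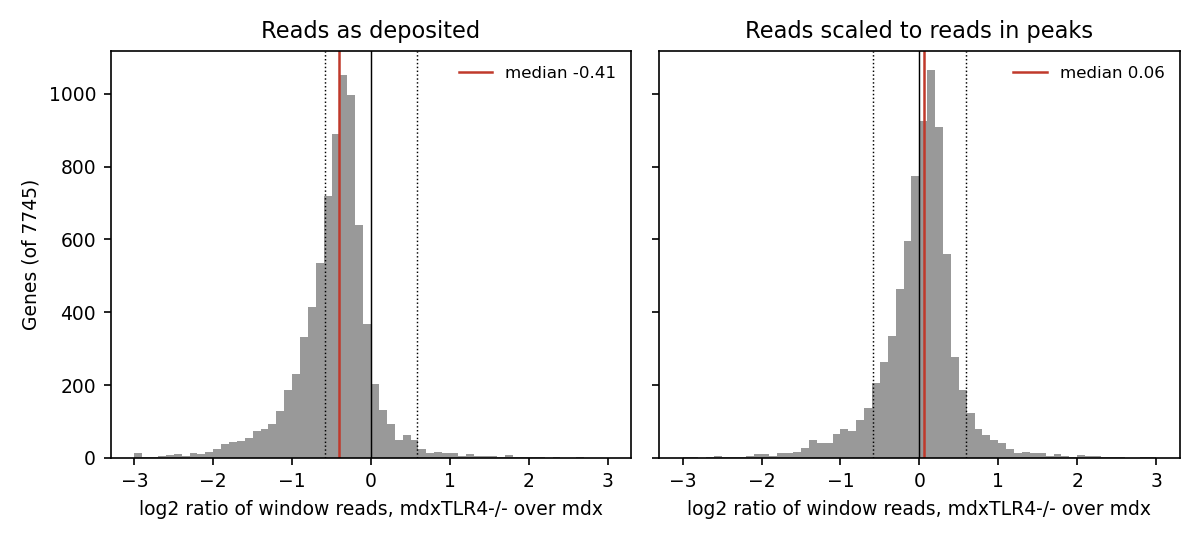
Histograms of the log2 ratio of window reads, mdxTLR4-/- over mdx, for 7745 genes, with reads as deposited (left) and scaled to reads in peaks (right); the red line marks the median (-0.41 and 0.06) and the dotted lines a fold of 1.5 either way. Values beyond 3 in either direction are drawn in the outermost bars, and the 2 distributions have the same shape shifted by the scaling.

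In the 23776 shared regions the density ratio had a median of 0.788 unscaled, 1.09 scaled, and 1.00 when each list was taken relative to the 1st percentile of its own peak densities. The median shared region had 93.7% as many bases under mdxTLR4-/- peaks as under mdx peaks. Fewer bases were covered in mdxTLR4-/- in 13932 of them, more in 8449 and equally many in 1395. A single mdx peak was split into several mdxTLR4-/- peaks in 3419 regions, and the opposite held in 2207. The median scaled ratio went from 1.05 in the quintile of regions with the lowest GC content to 1.152 in that with the highest, and the part of GC content in the ratios of single genes was not tested.

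The marker genes that the study assayed by qPCR differed from each other. Of the 8 genes, 3 had a peak in either list. Il12a, at chr3:68690644-68698547, encodes the p35 chain of interleukin-12. Peaks covered 50.04% of its window in mdx, with 285 reads, and 25.9% in mdxTLR4-/-, with 145 reads. The ratio was 0.509 unscaled (0.414 to 0.624) and 0.705 scaled (0.573 to 0.864). Per covered kb, however, the reads were 41.0 in mdx and 40.3 in mdxTLR4-/-, a scaled ratio of 1.36. The lower window reads thus went with fewer covered bases. In mdx a peak of 4.60 kb over the start held 240 reads and a thinner peak of 3.20 kb lay upstream, in part outside the window. In mdxTLR4-/- only the peak over the start was present, 3600 bp long with 145 reads. The fall of 24.1 percentage points missed the call of 25 points.

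Tnf, which encodes the cytokine TNF at chr17:35199381-35202007, had 34.8% of its window covered in mdx and no peak in mdxTLR4-/-. The mdx signal was 1 peak of 3.00 kb with 85 reads that ended 1.59 kb upstream of the start and lay over the neighbouring gene Lta, lymphotoxin alpha, whose window fell from 36.6% to 0%. With 2.5 kb on either side of the start as the window, Tnf missed the call, and over the gene body alone Tnf had no peak in either list. Nos2, the inducible nitric oxide synthase, was mostly covered in both lists, with 77.0% and 82.3% of its window and 1829 and 1586 reads. Its ratio was 0.867 unscaled (0.810 to 0.928) and 1.201 scaled (1.12 to 1.29), so that its direction changes with the scaling. The Nos2 peaks began 1.41 kb inside the gene in both lists and left its start free. Il6 (interleukin-6), Tgfb1 (transforming growth factor beta 1), Mrc1 (the mannose receptor CD206), Chil3 (Ym1) and Arg1 (arginase 1) had no peak in the window in either list.

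The promoter segments that the study amplified in ChIP-qPCR were located in the genome by their primers. Of 6 segments, only that of Il12a lay under a peak, at 52.2 reads per kb in mdx and 40.3 in mdxTLR4-/-. The Nos2 segment was 1.77 kb from the nearest peak in both lists and the Tgfb1 segment 11.1 kb. The Tnf segment was 0.843 kb from a peak in mdx and 61.0 kb in mdxTLR4-/-. For Arg1 the distances were 8.60 and 67.1 kb, and for Mrc1 113.5 and 368.8 kb. A segment outside peaks has no value in these lists, and its level of the mark was not analysed here.

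**Figure D4:**
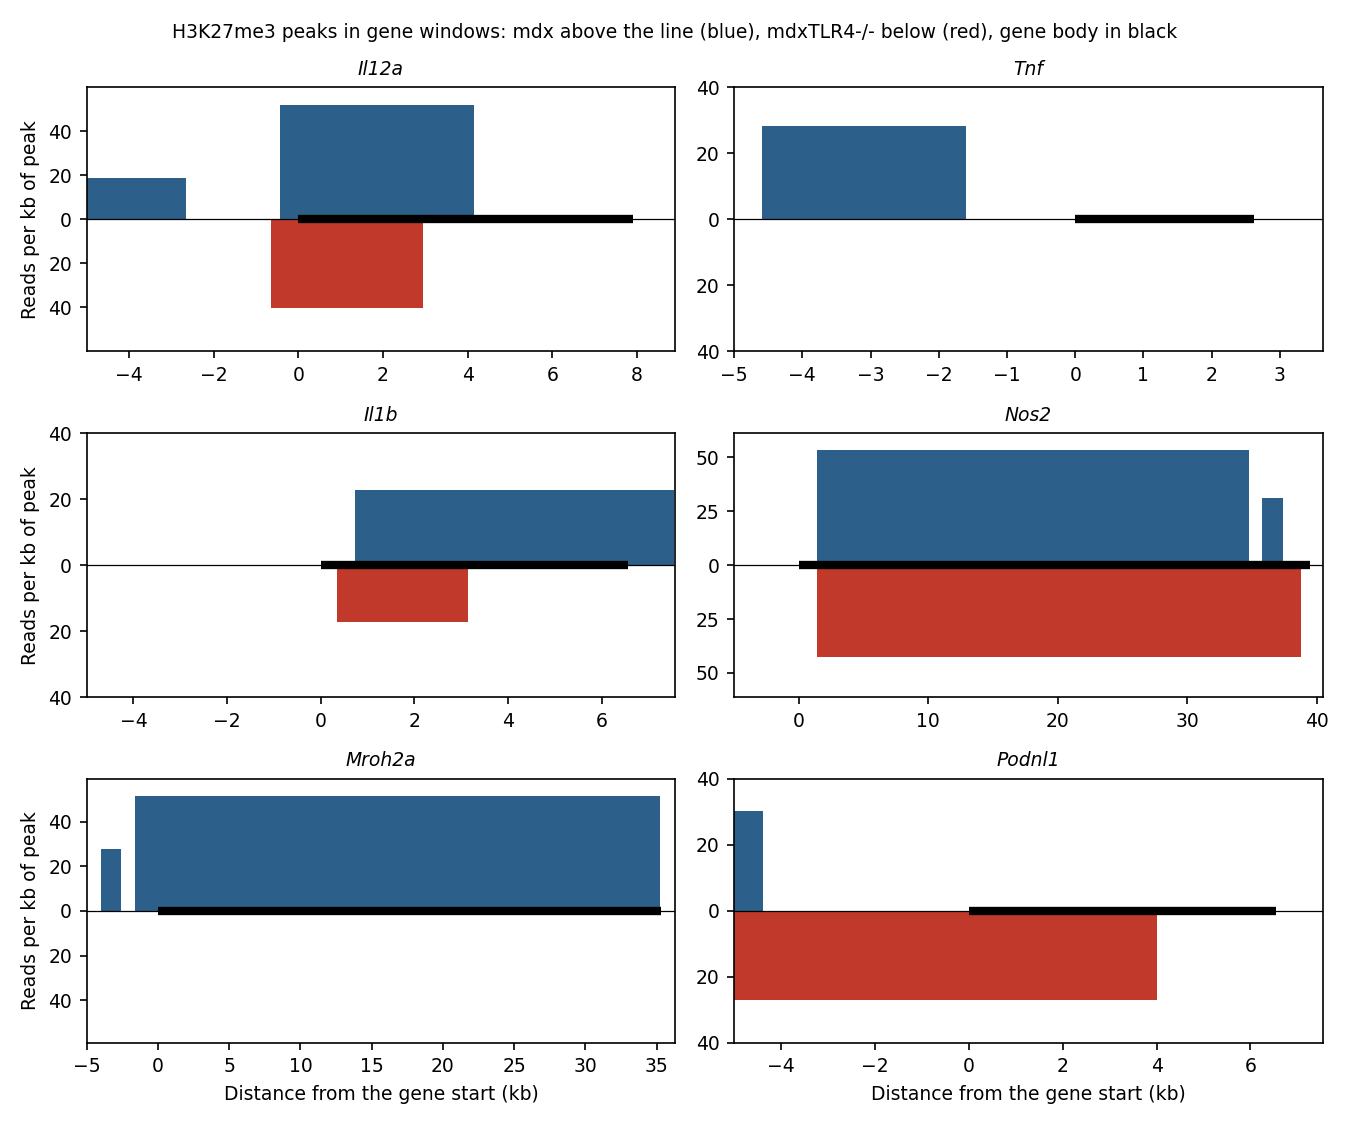
Peaks in the windows of 6 genes by distance from the gene start (x axis, kb), drawn as boxes whose height is the density of the whole peak in reads per kb, unscaled, with mdx above the line and mdxTLR4-/- below; both axes differ between panels. The upstream mdx peaks of Il12a and Tnf and the 36.8 kb mdx domain over Mroh2a have no counterpart, the Nos2 domain is present in both lists, and the Podnl1 start is under a peak in mdxTLR4-/- only.

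Tlr4 itself carried no peak in its window in either list. The nearest peak on its left was 421.2 kb away in mdx and 422.2 kb in mdxTLR4-/-, and on its right 3284 kb and 467.1 kb, so these lists hold no check of the deletion. Among 19 genes of the TLR4 receptor complex and its adaptors, 3 had a peak. Traf6, a ubiquitin ligase downstream of the receptors, went from 13.6% to 6.7% of its window with a scaled ratio of 0.53. Tollip, an inhibitor of the pathway, had 35.6% and 35.4%. Lbp, the lipopolysaccharide-binding protein, had 2.0% and 0%. Of 14 NF-kappaB subunits and inhibitors, 3 had a peak. Nfkbie, which encodes the inhibitor IkappaB epsilon, had 134 reads in mdx and 213 in mdxTLR4-/- and went from 11.1% to 23.0%. Its ratio was 1.59 unscaled (1.27 to 1.99) and 2.20 scaled (1.77 to 2.75). Over its whole merged region, however, there were 2639 reads in mdx and 2242 in mdxTLR4-/-, a scaled ratio of 1.18, so that the unscaled direction turned. Nfkb2 had 94 and 104 reads with a scaled ratio of 1.54. Among 8 other Toll-like receptor genes, Tlr12 had 65.4% and 56.4% and Tlr5 had 6.6% and 11.0%, and the other receptors had no peak. No gene of these 3 groups reached the call on coverage, and except for Nfkbie they were named after their values were seen.

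Cytokine genes differed by family. Of the 16 TNF superfamily ligands, 8 had lower and 1 higher coverage, and their mean went from 19.5% to 11.1%, against 18.2% and 16.8% over all genes. Tnf and Lta fell, both through the same mdx peak of 85 reads, and Ltb, their neighbour, went from 17.8% to 0%, so that much of the difference in the mean comes from 1 locus. Of 6 IL-1 family genes, Il1b, interleukin-1 beta, fell from 54.1% to 22.3% of its window, with 154 reads in mdx and 48 in mdxTLR4-/-. Its ratio was 0.312 unscaled (0.221 to 0.434) and 0.432 scaled (0.306 to 0.601), but 1.05 scaled per covered kb. The mdx peak of 6.80 kb ran over most of the gene body and past its end, and the mdxTLR4-/- peak of 2.80 kb lay in the first part of the body. In the 2.5 kb on either side of the start the difference turned to 8 points higher, and with only peaks of at least 1.5 times the 1st percentile of density, Il1b had no peak in either list. Il1f10, an inhibitory member of the family, went from 90.7% to 71.9%. Il1a, interleukin-1 alpha, had no peak in mdx and 1 upstream peak with 61 reads in mdxTLR4-/-, 19.6% of its window.

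The 14 type 2 and IL-10 family cytokine genes were among the most covered groups, with a mean of 73.2% in mdx and 71.4% in mdxTLR4-/-. Il13 fell from 100% to 72.5%, while its reads went from 336 to 304, a ratio of 0.905 unscaled (0.772 to 1.06), 1.25 scaled (1.07 to 1.47) and 0.891 scaled over its whole merged region. Il4, its neighbour and the main inducer of alternative activation, went from 52.0% to 74.1% with a ratio of 1.152 unscaled (0.983 to 1.35) and 1.60 scaled (1.36 to 1.87). Il24 went from 77.2% to 100% while its reads went from 526 to 420, and Tslp went from 15.4% to no peak. Of the 12 IL-12 and IL-6 family genes only Il12a moved by 10 points or more.

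Of 37 chemokine genes, 8 had lower and 7 higher coverage, 3 fell (8.11%, against 1.84% of all genes) and 1 rose (2.70%, against 0.505%), and the mean was 24.7% and 24.1%. Ccl17, a ligand of T cells made by alternatively activated macrophages, fell from 46.8%, with 84 reads upstream of its start, to no peak. Ccl22, which lies beside it and shares its receptor, went from 65.2% to 81.8%, and its start was under a peak in mdxTLR4-/- only. Its reads, however, were 271 in mdx and 214 in mdxTLR4-/-, a ratio of 0.790 unscaled (0.657 to 0.948) and 1.09 scaled (0.910 to 1.31). Ccl8, a monocyte attractant, fell from 86.9% to 55.4% with a scaled ratio of 0.735 (0.568 to 0.946). The scaled ratio was 0.293 over its upstream merged region, with 255 and 54 reads, which leaves out the peaks over the gene body. Cx3cl1, fractalkine, was the other gene that fell, from 70.6% to 45.0%, and was named after its value was seen. Ccl21a rose from 4.8% to 60.8%, but it has near-identical copies in the genome between which its reads may have been split. Of 37 interferon-stimulated genes, 13 had a peak and none reached the call. Ifit3 went from 17.9% to no peak, and Oas2 from 22.2% to 11.2% while its reads were 128 and 158. The 158 reads are a share of an mdxTLR4-/- peak of 29.8 kb with 1645 reads that lay mostly past the gene end. Over the whole merged region there were 5417 reads in mdx and 4799 in mdxTLR4-/-.

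Most genes that define macrophages had no peak in either genotype. Of 20 lineage genes, 4 had a peak, and the mean coverage was 3.55% in mdx and 3.14% in mdxTLR4-/-. The other 16 markers, among them Spi1, Csf1r, Adgre1 and Lyz2, had no peak. Genes of other cell types had higher coverage. The mean was 46.7% and 39.8% for 21 T and B cell genes, 27.4% and 22.3% for 21 neutrophil granule and erythroid genes, 30.8% and 31.6% for 18 fibroblast and endothelial genes, and 47.9% and 45.7% for 20 myogenic and muscle genes. In the T and B cell list 16 genes had lower and 2 higher coverage, against 5595 and 2758 of all genes. Of this list 19 of 21 genes had a peak in either genotype, and 2 genes fell (9.52%, against 1.84% of all genes). Cd8b1, a T cell co-receptor chain, and Cd79b, part of the B cell receptor, fell from 33.8% and 36.1% to no peak. Among neutrophil genes, S100a9, a calcium-binding alarmin, fell from 58.2% to 17.6% with a scaled ratio of 0.363 (0.247 to 0.522). Its body alone had 6.47 points more coverage in mdxTLR4-/-. The scaled ratio was 0.798 over the merged region that overlapped its window most, with 66 and 38 reads. That region leaves out the mdx peaks of 69 and 322 reads that also reach into the window. Lcn2, lipocalin 2, fell from 45.7% to no peak. In the neutrophil granule and erythroid list 8 genes had lower and 3 higher coverage, and 2 fell (9.52%, against 1.84% of all genes). Prtn3 went the other way, from no peak to 23.1%, as did Hba-a2, from 85.3% to 100%. The reads of Hba-a2, however, went from 286 to 204, a scaled ratio of 0.988. Hba-a1, in the same merged region, went from 100% to 81.8% with 274 and 292 reads.

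Among 25 alternative activation and scavenger receptor genes, 9 had lower and 1 higher coverage, and the mean went from 24.4% to 20.8%. Mgl2, a C-type lectin, went from 26.8% with 112 reads to 4.2% with 10. Cd209a, a lectin receptor, was fully covered in both lists and had 751 and 320 reads, which is taken up with the peak boundaries. The larger lists that the study assembled showed small differences. The mean was 9.39% and 8.54% for 679 pro-inflammatory genes, 11.7% and 10.4% for 762 anti-inflammatory genes, and 32.2% and 29.7% for 59 pro-fibrotic genes. Of these lists 4, 7 and 0 genes fell and 3, 1 and 0 rose. The shares that fell, 0.589%, 0.919% and 0%, were below the 1.84% of all genes. In these lists 245, 317 and 44 genes had a peak in either genotype. Their median scaled ratios were 1.00, 0.991 and 1.01, against 1.04 over all genes tested. Of 41 matrix genes that the study picked from its own H3K27me3 data, 2 fell (4.88%, against 1.84% of all genes) and 1 rose (2.44%, against 0.505%). All 41 had a peak in either list, against 9356 of all 20807 genes, and a gene without a peak in mdx cannot fall. Their mean was 70.3% and 67.4%, and this list is not independent of these libraries.

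Extracellular matrix genes kept most of their coverage. Of 42 collagen genes, 36 had a peak, 24 had lower and 9 higher coverage, none reached the call, and the mean was 41.3% and 38.3%. Col11a2, a fibrillar chain of cartilage, went from 39.1% to 16.8%, and Col6a2 from 35.5% to 13.6% with a scaled ratio of 0.596 (0.486 to 0.726). Per covered kb the scaled ratio of Col6a2 was 1.56. Col6a1, which lies next to Col6a2 and encodes another chain of the same microfibril, went the other way, from 17.8% to 30.8% with 112 and 152 reads and a scaled ratio of 1.88 (1.46 to 2.42). Over the merged region that overlapped each window most, the scaled ratios of Col6a2 and Col6a1 were 0.998 and 1.23. For Col6a2 that region holds only the peaks over the start, with 200 and 144 reads, without the other mdx peaks of the window. For Col6a1 it leaves out the mdxTLR4-/- peaks of 38 and 33 reads inside the gene body. Of 44 matrix proteases and inhibitors, 34 had a peak and 2 fell (4.55%, against 1.84% of all genes). Mmp17, a membrane-anchored metalloproteinase, fell from 80.0% to 41.1%, and Mmp7, matrilysin, from 26.0% to no peak. The mdx peak of Mmp7 lay wholly upstream of its start. Adamts4 and Adamts15, which cut proteoglycans, went from 23.4% to 46.9% and from 15.2% to 30.0%. Of 31 laminin and integrin genes, 17 had lower and 4 higher coverage. Lamb2, a laminin chain of the neuromuscular basement membrane, fell from 44.1% with 242 reads to no peak, and Lama3 went from 37.5% to 24.1%. Among 23 elastic fibre and lysyl oxidase genes, Mfap2, a microfibril protein, rose from 58.8% to 86.3%, and Fbln1, a fibulin, went from 74.8% to 57.5%.

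Growth factor genes varied in both directions. Of 33 TGF-beta, BMP and GDF ligand genes, 12 had lower and 13 higher coverage, with a mean of 40.8% and 39.8%. Inhbe, an activin chain, fell from 50.2% to 22.5%, and Amh, the anti-Müllerian hormone, went from 29.1% to 10.09%. Lefty1, an inhibitor of Nodal, went from 49.0% to 66.1% while its reads went from 209 to 175. Of 39 Wnt ligands, Frizzled receptors and antagonists, 24 had lower and 6 higher coverage, and the mean went from 66.0% to 61.2%. Sfrp4, a secreted antagonist, fell from 79.9% to 39.0% and Wnt16 from 67.5% to 33.1%. Pdgfrb, the platelet-derived growth factor receptor of pericytes and fibroblasts, had 808 reads in mdx and 1088 in mdxTLR4-/-, a ratio of 1.35 unscaled (1.23 to 1.48) and 1.87 scaled (1.70 to 2.05), and it went from 51.1% to 61.1%. Over its whole merged region the reads were 3502 and 3072, lower in mdxTLR4-/- unscaled, with a scaled ratio of 1.22.

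Developmental regulators had high coverage in both lists. The 39 Hox cluster genes had a mean of 92.7% in mdx and 91.1% in mdxTLR4-/-, with 9 lower, 2 higher and 28 equal. Hoxa4 fell from 72.8% to 45.6%. The 92 genes of the Nkx, Lhx, Irx, Dlx, Sox, Pou, Pax, Gata and Tbx families had 76.2% and 74.3%. Of them 87 had a peak, 2 fell (2.17%, against 1.84% of all genes) and 1 rose (1.09%, against 0.505%). Dlx5, a homeobox gene of bone and forebrain, fell from 95.3% to 70.0%, Tbx5, a T-box gene of heart and forelimb, from 74.3% to 48.7%, and Sox12 rose from 35.0% to 65.1%, but had 1.91 points less coverage in mdxTLR4-/- under the same density minimum (difference -1.91). The 41 forkhead genes had a mean of 60.2% and 58.7%, with 10 lower and 6 higher. Pax7, the marker of muscle stem cells, had 89.3% and 78.6%, with 4728 and 4046 reads, a ratio of 0.856 unscaled (0.820 to 0.893) and 1.19 scaled (1.14 to 1.24). Median scaled ratios were 1.11, 1.07 and 1.10 in the Hox, Nkx to Tbx and forkhead groups, against 1.04 over all genes tested.

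**Figure D5:**
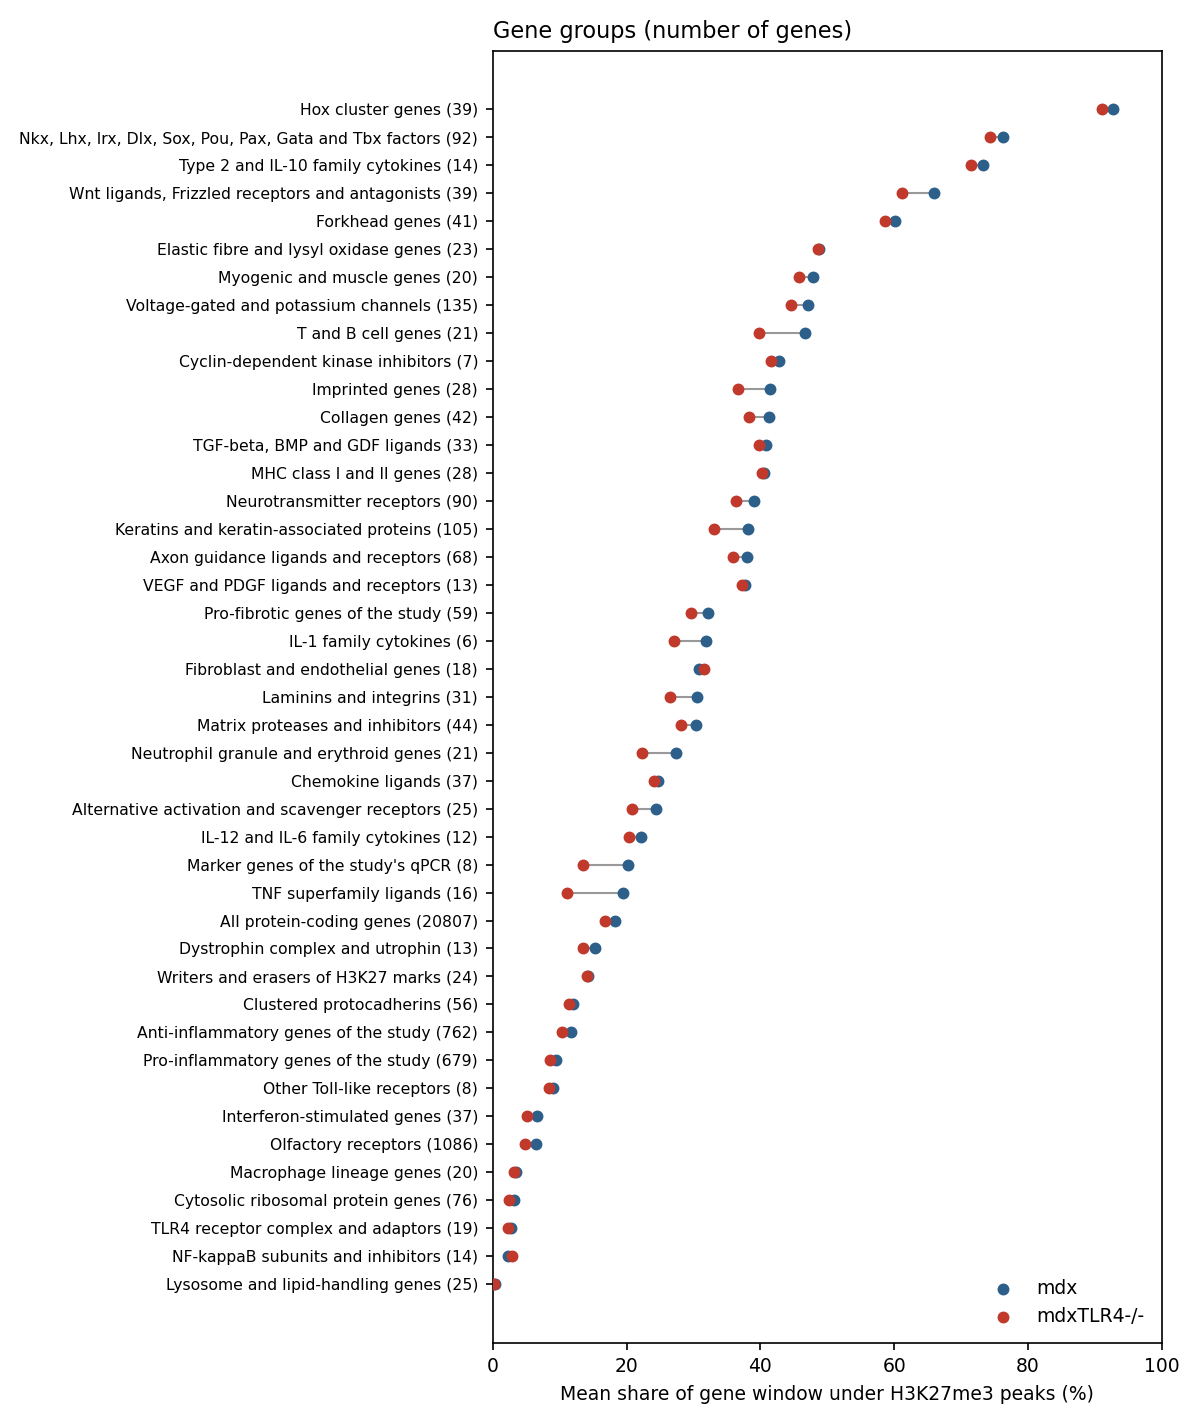
Mean share of gene windows under H3K27me3 peaks (x axis, %) in mdx (blue) and mdxTLR4-/- (red) for each gene group and for all 20807 genes, with the number of genes in parentheses and no error bars, since each genotype has 1 list. Hox genes lie at 92.7% and 91.1%, macrophage lineage genes at 3.55% and 3.14%, and the widest gap among the groups drawn is that of the TNF superfamily ligands, from 19.5% to 11.1%, where Tnf and Lta share 1 mdx peak of 85 reads.

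Genes of excitable cells had lower means in mdxTLR4-/- and few calls. The mean was 47.2% and 44.6% for 135 voltage-gated and potassium channel genes, 39.0% and 36.3% for 90 neurotransmitter receptor genes, and 37.9% and 35.9% for 68 axon guidance genes, and in each group 1 gene fell and none rose. These were Kcna10, a potassium channel, from 100% to 68.2%, Gabrr1, a GABA receptor subunit, from 61.2% to 34.0%, and Robo4, an endothelial guidance receptor, from 58.3% to 17.7%. The shares that fell were 0.741%, 1.11% and 1.47%, against 1.84% of all genes. Of 56 clustered protocadherins, 24 had lower and 10 higher coverage, with a mean of 12.1% and 11.4% and none called. The 13 genes of the dystrophin complex and utrophin had a mean of 15.3% and 13.6%, with 7 lower, 4 higher and none called. The 28 imprinted genes had a mean of 41.4% and 36.7%, and Nnat and Rtl1 went from 23.7% and 19.8% to no peak. The 24 writers and erasers of H3K27 marks had 14.3% and 14.2%, the 7 cyclin-dependent kinase inhibitors 42.7% and 41.6%, and the 13 VEGF and PDGF genes 37.7% and 37.3%, with no call in any of them.

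Large gene families held a share of the called genes. Of 1086 olfactory receptor genes, 140 had a peak, 31 fell (2.85%, against 1.84% of all genes) and 1 rose (0.0921%, against 0.505%). A gene without a peak in mdx cannot fall, and among all genes 9356 had a peak and 382 fell. The 103 olfactory genes tested had a median scaled ratio of 0.860, against 1.04 over all genes tested. Olfr1441 fell from 68.9% to 6.3% and Olfr1329 from 80.7% to 17.3%, and Olfr1331 rose from no peak to 26.0%. Under the density minimum Olfr1441 and Olfr1329 turned to 6.33 and 17.3 points higher in mdxTLR4-/-. Of 105 keratin and keratin-associated protein genes, 9 fell (8.57%, against 1.84% of all genes) and none rose, although their median scaled ratio was above that of all genes. Krtap5-3 fell from 94.3% with 248 reads to no peak, and Krtap10-4 from 95.8% to 10.0%. Krt8, an epithelial keratin, went from 58.6% to 81.2%, with a ratio of 1.29 unscaled (1.12 to 1.48) and 1.78 scaled (1.55 to 2.06). Of 28 MHC class I and II genes, 18 had a peak and the mean was 40.6% and 40.2%. H2-K1, a classical class I gene, rose from 5.8% to 48.4%, with 64 reads in mdx and 213 in mdxTLR4-/-. The block with H2-Q6, H2-Q7, H2-Q10 and Pou5f1 held the most reads per kb of any windows of 10 kb or more. It lay under 1 peak of 142.4 kb with 134.0 reads per kb in mdx and 1 of 136.2 kb with 121.3 in mdxTLR4-/-. Of 76 ribosomal protein genes, Rpl38 and Rpl35a fell from 41.6% and 32.9% to no peak (2.63% of the group, against 1.84% of all genes). Their mdx peaks lay wholly upstream of the start, so that start and body had no peak in either list. Of 25 lysosome and lipid-handling genes 5 had a peak, with a mean of 0.396% and 0.216%. Members of such families share sequence, and the sources used here do not say how reads that match several copies were placed.

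Among windows of 10 kb or more, the largest falls included genes outside the groups. Mroh2a fell from 92.5% with 1929 reads to no peak. Cldn19, a tight junction protein of kidney, fell from 56.7% with 227 reads in 3 peaks to no peak, and Tex36 from 58.5% with 294 reads in 5 peaks to no peak. Bpifa5, of a family of lipid-binding proteins secreted by airway and mouth, fell from 64.6% with 234 reads to 7.2% with 19. Gja10, a gap junction protein, fell from 61.0% with 186 reads to 3.1% with 8. The largest rises were Podnl1, a small leucine-rich proteoglycan, from 4.9% with 19 reads to 71.9% with 245, and Tcl1b5, from 24.1% with 64 reads to 81.0% with 198. Gal3st2, a sulfotransferase, rose from 10.4% with 56 reads to 53.8% with 241, a ratio of 4.30 unscaled (3.21 to 5.86) and 5.96 scaled (4.44 to 8.12). Smok3c and Cd300ld2, a myeloid receptor gene, rose from 25.8% to 74.2% and from 13.4% to 53.9%, with scaled ratios of 3.29 (2.74 to 3.97) and 4.49 (3.25 to 6.29). Except for Podnl1, whose 19 reads in mdx were too few for a ratio, these genes were above a fold of 1.5 unscaled as well. Since reads count only inside peaks, this follows in part from the choice of genes by coverage. Unscaled reads per covered kb were lower in mdxTLR4-/-, at 22.6 against 24.6 for Tcl1b5 and 21.1 against 25.5 for Gal3st2. They were 27.7 against 33.4 for Smok3c and 25.3 against 31.1 for Cd300ld2.

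Neighbouring genes moved together in a few places. Of the genes that fell, 87 lay in 41 runs of 2 or more neighbours, and of those that rose, 19 lay in 7 runs. The longest run of falls was at chr10:77814682-77847303, with Gm2696, Krtap10-4, Krtap10-10 and Gm36176 in a keratin-associated protein cluster. Krt25, Krt26 and Krt27, keratins of the hair root sheath, formed another at chr11:99315516-99351104, where coverage fell from 89.6% to 56.8%, 84.4% to 35.4% and 86.1% to 44.2%. Of these, Krt26 turned to 13.3 points higher under the density minimum and to 9.3 points higher around its start, and Gm2696 of the preceding run turned to 20 points higher around its start. A further run held Nudt8, Gm49405 and Doc2g on chromosome 19, whose windows overlap. The longest run of rises was the block on chromosome 2 with Gm13698, Gm13693, Gm13695, Gm13696, Gm13694, Gm13697 and Gm13691, from no peak in mdx to between 80.6% and 100%. The 7 bodies have the same length and the 7 promoters the same sequence, so they count as 1 locus. Tcl1b5 and Tcl1b3 rose on chromosome 12, and Cphx1 and Duxbl1, homeobox genes, on chromosome 14, where Cphx1 turned to a difference of -9.57 points under the density minimum.

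For genes covered in both lists, the extreme density ratios went with different peak boundaries. Among genes with at least 50% coverage and 200 or more reads in both lists, the lowest scaled ratios of reads per covered kb were at Slc51a (0.574), Cd209a (0.590), Dkkl1 (0.674), Calcoco2 (0.684) and Dio3 (0.716). The highest were at Islr2 (1.98), Nkx6-2 (1.87), Lgals2 (1.82), Hba-a1 (1.80) and Cldn5 (1.75). Calcoco2 lay at the end of an mdx peak of 213.2 kb with 81.1 reads per kb, and under an mdxTLR4-/- peak of 42.8 kb with 40.02. Islr2 lay at the end of an mdx peak of 185.4 kb with 59.1 reads per kb, and under an mdxTLR4-/- peak of 15.0 kb with 84.5. The lists give 1 count for a whole peak, so a gene takes the mean density of the peak that holds it. Over the whole merged region, scaled ratios of reads for the same 10 genes were between 0.904 at Cldn5 and 1.26 at Lgals2, with Slc51a at 1.11, Cd209a at 0.996, Calcoco2 at 1.09, Islr2 at 1.16 and Nkx6-2 at 1.13.

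Lower coverage in mdxTLR4-/- was found on every chromosome measured. Median scaled density ratios of shared regions lay between 1.06 on chromosome 13 and 1.11 on chromosome 15, and mean window coverage was lower on all 19 chromosomes. The share of genes that fell was between 0.390% on chromosome 18 and 3.34% on chromosome 19. In 325 bins of 5 Mb with at least 20 shared regions the median scaled ratio lay between 0.976 and 1.18. The bin with Tlr4 held 2 shared regions, too few to be among them, with a median of 1.46.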

How the data were processed

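H3K27me3 ChIP-seq of untreated BMDM was measured in 2 mdx and 2 mdxTLR4-/- libraries with 2 input libraries each. The authors trimmed reads with cutadapt 1.15, mapped them to mm10 with Bowtie2 2.3.4, merged the replicates, called peaks against the merged input with SICER 2.0 (window 200 bp, gap 600 bp, FDR below 0.01) and deposited 1 list per genotype with the read count of each peak, not scaled for depth or length. CASAVA 1.8 is also named in the submitters' processing notes. Removal of duplicates is not given in the sources used here. Since replicates were merged, precision was limited to counting error, and library depth is unknown.

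From these lists, coverage and reads of gene windows (GENCODE vM21) were computed in Python 3.11.15 with pandas 2.3.3 and numpy 2.4.6, intervals with statsmodels 0.14.6 and scipy 1.17.1, and figures with matplotlib 3.10.9. The end column was taken as inclusive, because peak lengths are then multiples of 200 bp. Genes were called at 25 percentage points of coverage, or at a fold of 1.5 with 20 or more reads in both lists. Read ratios carry Clopper-Pearson intervals, shares Wilson intervals and medians order-statistic intervals, and scripts were tested on simulated lists. The read ratio intervals are approximate. They use window reads shared out by bases and rounded, as if the reads of a peak were evenly spread. Scaling brought both lists to the same number of reads in peaks.

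The genes and lists were chosen with earlier results of these data known. Named were the qPCR markers of the study and Tlr4, the 6 largest falls and 6 largest rises among windows of 10 kb or more with 50 or more reads, the 2 largest moves of 10 points or more each way in each gene list, the 5 highest and 5 lowest density ratios, the 3 longest runs each way and the 4 windows densest in reads. Not every gene so named is described, some are not reported here, and genes outside the rule were named where a list had few members with a peak.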

Additional observations from a re-analysis of the deposited data

How the results depend on the processing

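No paired analysis was possible because the replicates were merged into 1 list per genotype before deposit, and for the same reason leaving out a replicate could not be run. Coverage calls depended on the threshold and window: 108 genes fell and 28 rose at 40 points, 1670 and 542 at 10 points, 937 and 360 within 2.5 kb of the start, and 171 rose over the gene body alone. With both lists cut to equal numbers of peaks by density, 279 genes fell and 138 rose, and more genes fell than rose under every alternative run. At a density of 1.5 times the 1st percentile 285 fell and 154 rose, of which 146 and 55 were among the 382 and 105 called with all peaks, and around the start 226 and 66 of these were called. Unscaled, 851 genes were lower and 67 higher at a fold of 2, and 726 and 33 per covered kb. Scaled, these counts were 310 and 170 at a fold of 2, with 34 lower per covered kb. The median unscaled ratio was 0.758 with 50 or more reads, 0.727 with all reads of touching peaks and 0.813 per covered kb. The scaled median was 1.05, 1.01 and 1.13 in the same order, 0.955 when scaled to shared regions and 0.960 when each list was set against its 1st percentile of density, so that it lay on either side of 1. With 50 or more reads, 69 genes were higher unscaled and 472 lower scaled, and with all reads of touching peaks 303 were higher unscaled and 1239 lower scaled. Reads of the whole merged region that overlapped the window most, an alternative chosen after seeing the data, gave medians of 0.766 and 1.06. With it, 80 genes were higher unscaled and 331 scaled. Coverage differences turned direction at a density of 1.5 times the 1st percentile for Sox12 (-1.91 points), Cphx1 (-9.57), Olfr1329 (17.3), Krt26 (13.3) and Olfr1441 (6.33), around the start for Il1b (8), Gm2696 (20) and Krt26 (9.3), and over the body for S100a9 (6.47). The cause was not tested. Of 63 named genes past the coverage call, 62 kept direction and call with peaks of 2 kb or longer, 60 with equal numbers of peaks, and 40 both at 1.5 times the 1st percentile and around the start.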

Other observations

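Some peaks without a counterpart lay in or near genes that belong to none of the gene groups. In mdx these included a peak of 18.4 kb with 503 reads at Megf6, peaks of 11.8 kb at the receptor phosphatase gene Ptprf (375 reads) and at Myo15b (371 reads), and a peak of 12.2 kb with 327 reads at the granzyme gene Gzmc. In mdxTLR4-/- they included a peak of 8.8 kb with 442 reads at the kinesin gene Kif27 and a peak of 11.8 kb with 423 reads at the zinc finger gene Zfp993, which was 490.8 kb from the nearest mdx peak. The nearest peak of the other list was 18.4 kb away at Megf6, 4.8 kb at Ptprf, 3.4 kb at Myo15b, 13.4 kb at Gzmc and 3.8 kb at Kif27. These peaks were picked after their values were seen.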
